A study of Mus musculus with 6 samples.

Results

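The golgins are long rod-shaped proteins that stand on the surface of the Golgi apparatus and catch transport vesicles, and the set described here holds 10 mouse genes: *Golga1*, *Golga2*, *Golga3*, *Golga4*, *Golga5*, *Golgb1*, *Gcc1*, *Gcc2*, *Trip11* and *Gorasp2*. They were chosen by gene symbol, as coiled-coil golgins and tethers with a GRIP domain, from the 24411 gene symbols counted in each library. *Gorasp2* is the exception among them, because it encodes a Golgi stacking protein with PDZ-like domains and not a coiled-coil rod. All 10 genes passed the filter on low counts that kept 15303 genes for testing.

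The cochlear sensory epithelium of *Kir2.1*-OE mice was compared with that of littermate controls at P9, before the onset of hearing. *Kir2.1*-OE mice carried 1 copy of *Otof* rtTA and 1 copy of tetO-Kir2.1-IRES-tau-lacZ, so that doxycycline (DOX) turned on Kir2.1, a K+ channel that holds the membrane potential negative, in the cells that use the *Otof* promoter, mainly the inner hair cells (IHCs). Controls carried *Otof* rtTA without the *Kir2.1* transgene. Both genotypes were on the C57BL/6N background and drank water with 0.5 mg/ml DOX. Each genotype had 3 libraries, and each library was made from a pool of 8 cochleae from 4 mice, so the replicate is a pool. The question put to the libraries was which genes differ when IHCs lack their own Ca2+ action potentials.

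Between 35430940 and 41205047 reads were assigned to genes per library. *Kcnj2*, which encodes Kir2.1, had 3612, 3813 and 2213 normalized counts (read counts scaled to a common library size) in the *Kir2.1*-OE pools and 236, 228 and 226 in the controls, so each library followed its label. The counts are those of the whole dissected tissue, in which a larger number of cells of a type and more RNA per cell cannot be told apart. All 11 lists of cell type markers were detected, with no marker at 0 in every library. The summed level of 4 IHC markers lay between 251 and 295 CPM (counts scaled to a common library total) in *Kir2.1*-OE and between 185 and 207 in control libraries, and 2 of the 4 were called higher. Markers of spiral ganglion neurons (6 of 8 called higher; 855 to 1950 against 487 to 673 CPM) and of cartilage and bone (2 of 6; 17100 to 20600 against 7640 to 10700) were also higher in *Kir2.1*-OE libraries. The summed levels of markers of glia (1 of 5 called higher; 8930 to 11100 against 6320 to 8310), of hair cells in general (1 of 6; 565 to 672 against 479 to 495) and of macrophages (0 of 6; 175 to 187 against 159 to 169) did not overlap either. Of 4 outer hair cell markers 2 were called higher, while their sums overlapped (637 to 797 against 699 to 875). The sums of supporting cell markers also overlapped (1 of 6 called higher, 2250 to 2640 against 2140 to 2310). So did those of fibrocyte markers (1 of 4 called higher and 1 lower, 4060 to 4820 against 3610 to 4970). Erythrocyte markers were lower (3 of 5; 289 to 367 against 477 to 1190), as were melanocyte markers (2 of 5 listed; 10.2 to 13.4 against 24.1 to 28.9). Of all genes tested, 15.5% were called higher and 5.08% lower by the rule given below. Taken singly, 61.6% of them did not overlap between the groups. The part of the marker differences in the results on Golgi genes was not tested.

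Golgins are anchored at 1 end to a given region of the Golgi stack, some through a GRIP domain that binds the small GTPase Arl1 at the trans-Golgi network (TGN) and some through a membrane anchor or an adaptor. The free end reaches into the cytoplasm, where Rab GTPases and vesicles bind along its length. In sensory cells the Golgi apparatus glycosylates and sorts the membrane proteins that go to the hair bundle and to the synaptic pole.

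Of the 10 genes, 6 were higher in *Kir2.1*-OE mice (*Trip11*, *Golgb1*, *Golga4*, *Gcc2*, *Golga3* and *Golga2*), and none was called lower. The study itself singled out *Golga3*, *Golga4* and *Trip11* from these samples, so their direction here is not independent evidence. Calls required a difference of more than 1.5-fold and a p-value under 0.05 in the quasi-likelihood test of edgeR, after Benjamini-Hochberg adjustment over all genes. By this rule 20.5% of all genes tested were called, 15.5% higher and 5.08% lower. At the same thresholds the study, which used DESeq2, reported fewer genes in either direction. The cause of that difference was not tested. On the log2 scale the 10 genes had a median difference of 1.02, against 0.01 for all genes tested, and their range was from -0.17 for *Gorasp2* to 2.01 for *Trip11*. In 9 of the 10 genes each *Kir2.1*-OE library lay above each control library, and in *Gorasp2* each lay below. Such separation was common, since 61.6% of all genes tested did not overlap between the groups and 31.7% had all *Kir2.1*-OE libraries above. When glmTreat of edgeR tested for differences beyond 0.6 on the log2 scale, 5 of the 10 genes were called, all higher. Over all genes tested, 5.44% were called higher by it. The gene that this test did not call among the 6 was *Golga2*.

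**Figure D1:**
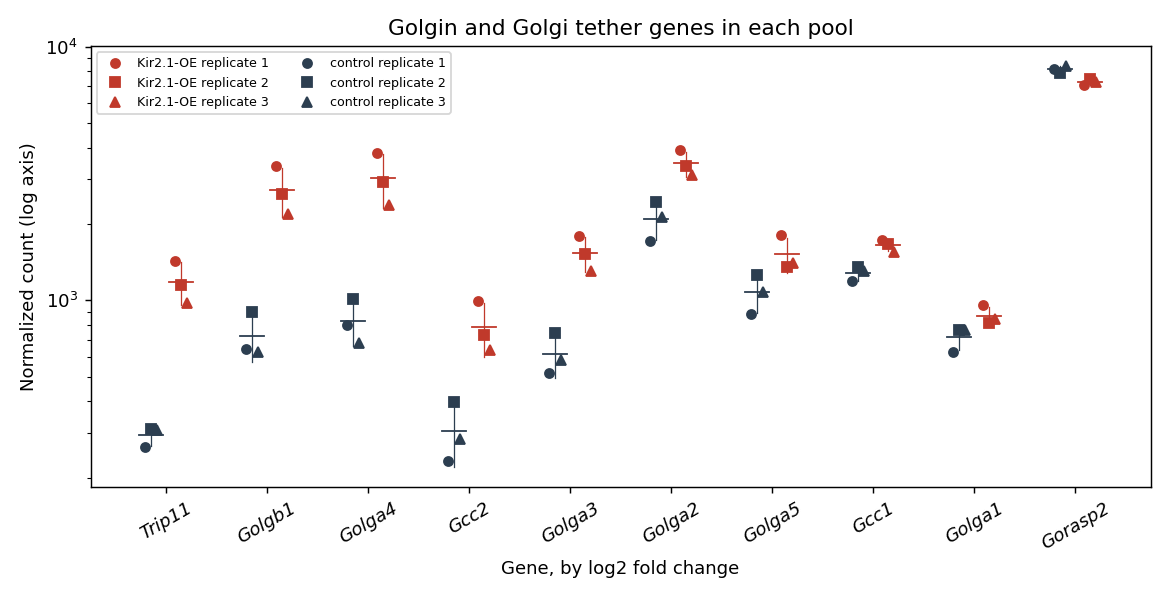
Normalized counts (log axis) of the 10 genes in each pool, ordered by log2 fold change, with *Kir2.1*-OE pools in red and controls in dark blue, horizontal bars at the mean and vertical bars for the SD of 3 pools. The *Kir2.1*-OE and control pools are apart in every gene, widely for *Trip11* (975 to 1428 against 264 to 312) and narrowly for *Golga1* (816 to 956 against 627 to 764), and *Gorasp2* is the gene in which the *Kir2.1*-OE pools lie below.

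*Trip11* encodes GMAP-210, a golgin of the cis-Golgi that catches highly curved vesicles, and its loss in humans causes a lethal skeletal dysplasia. The gene (ENSMUSG00000021188.14) lies on the minus strand of chromosome 12 of mm10, from 101834043 to 101913267. Replicates 1, 2 and 3 had 1428, 1154 and 975 normalized counts in *Kir2.1*-OE mice and 264, 312 and 309 in controls, and the values of the other genes follow in the same order. The lowest *Kir2.1*-OE pool therefore held about 3 times the highest control. The difference of 2.01 on the log2 scale (standard error 0.146, edgeR, adjusted p = 0.00012) was the highest of the 10 genes and ranked 50 among all genes tested.

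*Golga2*, the other cis-Golgi member, encodes GM130, which binds the tether p115 and the stacking protein GRASP65. It lies on chromosome 2 from 32287384 to 32307921 (ENSMUSG00000002546.16). Its counts were 3895, 3371 and 3130 in *Kir2.1*-OE pools and 1717, 2450 and 2124 in controls. The groups were apart by less than the spread among controls, between 3130 and 2450. The difference was 1.65-fold, or 0.72 on the log2 scale (edgeR, standard error 0.129, adjusted p = 0.0016), and in the test against 0.6 the adjusted p was 0.462 (edgeR's glmTreat).

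*Golgb1* encodes giantin, the largest golgin, which is held in the Golgi membrane by its C-terminal end. The gene (ENSMUSG00000034243.17) is on chromosome 16 from 36875140 to 36933085. Its counts of 3380, 2629 and 2181 in *Kir2.1*-OE pools stood well above those of 646, 898 and 629 in controls, and the log2 fold change was 1.91 (standard error 0.179). *Golga5*, on chromosome 12 from 102469135 to 102497907 (ENSMUSG00000021192.16), encodes the other golgin with a membrane anchor, golgin-84. It had 1803, 1357 and 1406 counts in *Kir2.1*-OE pools and 888, 1260 and 1083 in controls. The lowest *Kir2.1*-OE pool, 1357, was close to the highest control, 1260, and *Golga5* stayed under the 1.5-fold threshold at a log2 fold change of 0.50 (95% interval 0.18 to 0.82, adjusted p = 0.0168, edgeR).

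Among the 4 members with a GRIP domain, which act at the TGN, 2 were called higher and 2 were not. *Golga4* encodes golgin-245 (p230), which takes part in carrying cargo from the TGN to the cell surface, and lies on chromosome 9 from 118506267 to 118582519 (ENSMUSG00000038708.10). It had 3820, 2937 and 2380 counts in *Kir2.1*-OE pools and 802, 1013 and 678 in controls, with no overlap. Its log2 fold change was 1.87 (edgeR, standard error 0.186). *Gcc2*, on chromosome 10 from 58255497 to 58305599 (ENSMUSG00000038039.13), encodes GCC185, a tether for carriers that return from endosomes. Its counts were 999, 728 and 635 against 234, 397 and 285, and its log2 fold change was 1.36 (standard error 0.214). *Gcc2* was the most variable of the genes within groups, with a coefficient of variation of 24.0% in *Kir2.1*-OE and 27.4% in control pools.

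The other 2 GRIP members stayed under the threshold. *Gcc1*, which encodes GCC88 and lies on chromosome 6 from 28416091 to 28428390 (ENSMUSG00000029708.9), had 1734, 1672 and 1552 counts in *Kir2.1*-OE pools and 1189, 1352 and 1303 in controls. The log2 fold change was 0.37 (95% interval 0.19 to 0.55, adjusted p = 0.00435, edgeR), so that the interval stayed under the 1.5-fold threshold. *Golga1*, on chromosome 2 from 39016155 to 39065541 (ENSMUSG00000026754.16), encodes golgin-97. Its counts were 956, 816 and 842 against 627, 764 and 763, with a log2 fold change of 0.28 (95% interval 0.04 to 0.52, adjusted p = 0.0534, edgeR).

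*Golga3* encodes golgin-160, which links Golgi membranes to dynein and is needed for sperm formation in mice. It lies on chromosome 5 from 110176701 to 110226470 (ENSMUSG00000029502.14) and had 1795, 1517 and 1308 counts in *Kir2.1*-OE pools against 517, 743 and 582 in controls. The lowest *Kir2.1*-OE pool held 1308 counts and the highest control 743. Between the groups the fitted difference was 1.32 on the log2 scale (edgeR, standard error 0.152, adjusted p = 0.000225).

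*Gorasp2* encodes GRASP55, which helps to stack the medial cisternae, and lies on chromosome 2 from 70661576 to 70712636 (ENSMUSG00000014959.12). It had 7043, 7462 and 7272 counts in *Kir2.1*-OE pools and 8148, 7896 and 8378 in controls, and was the most evenly measured member, with coefficients of variation of 2.89% and 2.96%. The log2 fold change of -0.17 (95% interval -0.32 to -0.02, adjusted p = 0.0633, edgeR) did not pass the test.

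The pools differed within a genotype in the same order for most members. *Kir2.1*-OE replicate 1 was the highest *Kir2.1*-OE library in 9 of the 10 genes and replicate 3 the lowest in 7, while control replicate 2 was the highest control in 9 and control replicate 1 the lowest in 7. *Gorasp2* was the exception for both highest libraries. Averaged over the 10 genes on a log2 scale centred on each gene's mean, the *Kir2.1*-OE pools had 0.73, 0.47 and 0.33 and the controls -0.68, -0.31 and -0.54. For the genes with a transcript of 8000 nt or more, the median on the same scale was 0.48, 0.38 and 0.32 in the *Kir2.1*-OE pools and -0.41, -0.32 and -0.46 in controls. Genes with a transcript under 2000 nt, of which 2.44% were called higher, had the opposite sign, with -0.23, -0.14 and -0.13 against 0.19, 0.14 and 0.19.

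Transcript length therefore has to be read beside the golgin values. Golgin transcripts are long, with a median longest annotated transcript of 5708 nt for the 10 genes against 3380 nt for all genes tested. Across these 10 genes the log2 fold change followed length (Spearman's rho = 0.842), as it did across 15192 genes (rho = 0.557). Both values are descriptions across genes, which are measured in the same 6 libraries. The 6 called members have longest transcripts from 4373 to 11001 nt and the other 4 members from 2417 to 4869 nt.

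Set beside genes of like length, the members did not all stand in the same place. *Golgb1* (11001 nt), *Trip11* (9873 nt) and *Golga3* (8132 nt) belong to the 885 tested genes with 8000 nt or more, of which 64% were called higher. The median log2 fold change of those genes was 0.81 and their upper quartile 1.16, and all 3 members lay above that quartile. *Golga4* (7583 nt) and *Gcc2* (6547 nt) lay above the upper quartile of 0.87 for genes from 6000 to under 8000 nt, of which 44.6% were called higher. In the class from 4000 to under 6000 nt, where 19.9% of genes were called higher, *Golga2* (4373 nt) was above the upper quartile of 0.54, and *Golga1* (4869 nt) and *Gcc1* (4650 nt) lay between the median of 0.21 and that quartile. In the class from 2000 to under 4000 nt, where 6.67% were called higher, *Golga5* (3390 nt) was above the upper quartile of 0.23 and *Gorasp2* (2417 nt) below the median of -0.06.

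**Figure D2:**
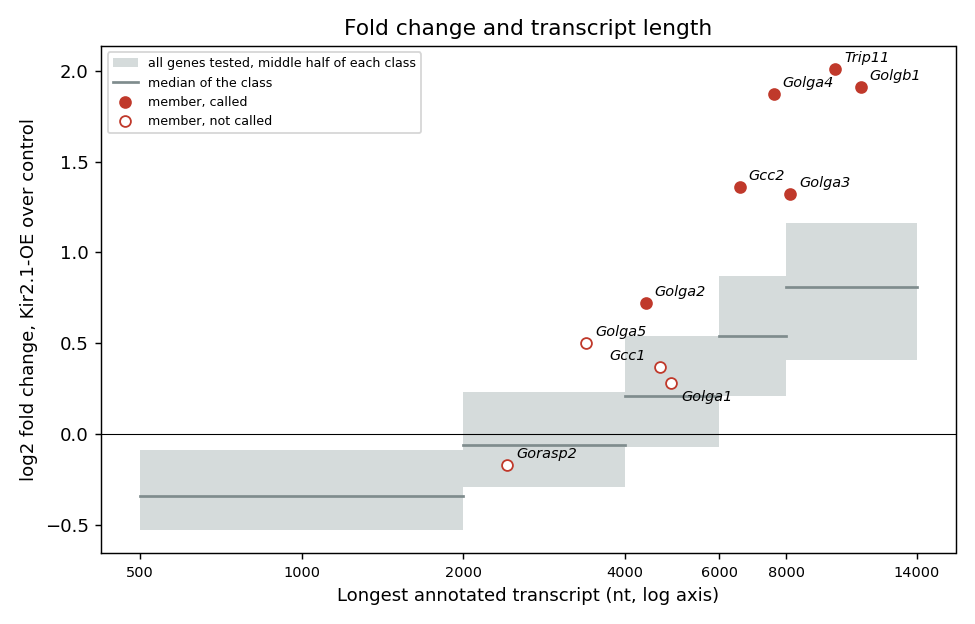
Log2 fold change of the 10 genes (red points, filled where called) against the longest annotated transcript in nt (log axis), over the median (grey line) and the middle 2 quartiles (grey boxes) of all genes tested in 5 length classes, of which the outer classes are open-ended. The class medians go from -0.34 for genes under 2000 nt to 0.81 for genes with 8000 nt or more, and 7 of the 10 genes lie above the box of their class.

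The model was also fitted with an offset for each gene and library. It is meant to take out the trend of that library with transcript length and GC content. Any true difference that runs with length is taken out with it. Then 5 of the 10 genes were called higher, and none lower, beside 6.45% higher and 3.4% lower over all genes. Their median was 0.62 on the log2 scale. *Trip11* was called at 1.56 (standard error 0.131, adjusted p = 0.000606, edgeR), *Golga4* at 1.19, *Golgb1* at 1.16, *Gcc2* at 1.13 and *Golga3* at 0.78. All 5 log2 values were lower than without the offsets, where *Golga4*, *Golgb1* and *Golga3* had 1.87, 1.91 and 1.32. *Golga2* lost its call, at 0.35 (adjusted p = 0.0342, edgeR, under the 1.5-fold threshold), and *Gcc1* went to 0.06 (95% interval -0.10 to 0.22). *Golga5* was little altered at 0.46, and *Golga1* and *Gorasp2* had 0.14 and -0.07. Across the 10 genes the log2 fold change with offsets still followed length (Spearman's rho = 0.806), whereas across all genes rho was 0.0784. The trend was not fully taken out for the longest genes. Genes of 8000 nt or more, among them *Trip11*, *Golgb1* and *Golga3*, kept a median of 0.20 with the offsets, and genes under 2000 nt had -0.08.

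**Figure D3:**
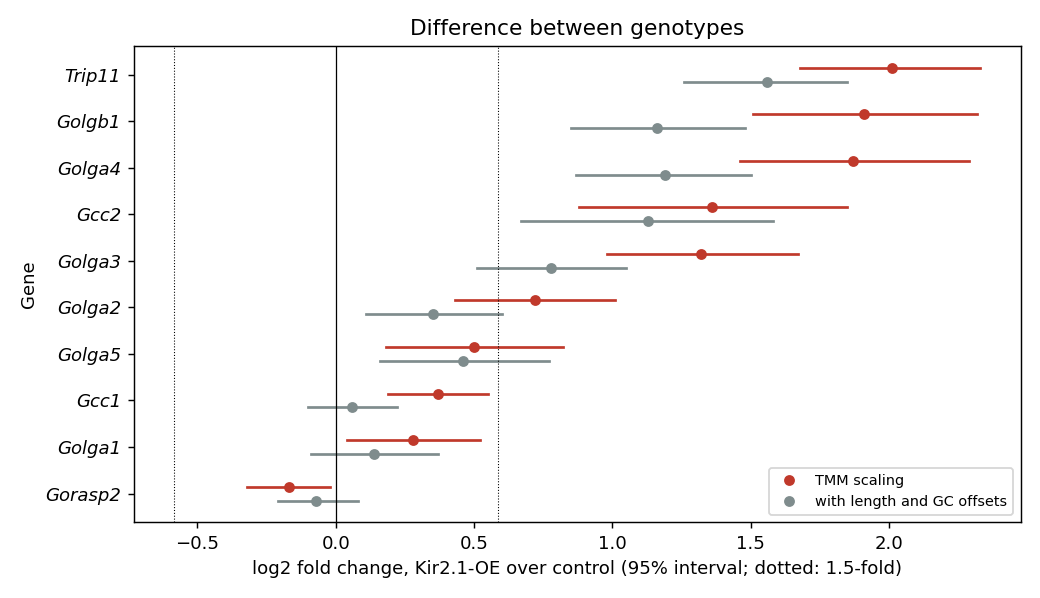
Log2 fold change of *Kir2.1*-OE over control with its 95% interval for each gene, with TMM scaling alone (red) and with offsets for transcript length and GC content (grey), and dotted lines at 1.5-fold in either direction. The 5 uppermost genes, from *Trip11* to *Golga3*, stay to the right of the 1.5-fold line at their point estimates in both fits, and *Golga2* crosses to its left with the offsets.

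To compare the members with each other within a library, each gene's log2 normalized count was set against the mean of the other 9. *Trip11* stood 1.85 below the others in controls and 0.77 below in *Kir2.1*-OE mice, a shift of 1.08. *Golgb1* and *Golga4* shifted by 0.99 and 0.94, *Gcc2* by 0.39 and *Golga3* by 0.35. The remaining members went the other way relative to the set, by -0.32 for *Golga2*, -0.57 for *Golga5*, -0.72 for *Gcc1*, -0.82 for *Golga1* and -1.32 for *Gorasp2*. In all 10 comparisons the groups did not overlap, and each had a p-value of 0.10 in a two-sided exact permutation test (0.10 after Benjamini-Hochberg adjustment over the 10), the smallest that 3 pools against 3 allow. These shifts must balance around 0, since each gene is set against the others, so they are given as a description of the order among the members.

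Levels were compared between genes per length, as CPM per kb of the longest annotated transcript. In controls *Gorasp2* was the most abundant, at 89.7 ± 2.66 (SD, n = 3 pools), and *Trip11* the least, at 0.796 ± 0.0728, a 113-fold range. *Golga2* followed *Gorasp2* with 12.8 ± 2.24, then *Golga5* with 8.46 ± 1.46 and *Gcc1* with 7.34 ± 0.48, and these last 2 overlapped between pools. *Golga1* had 3.93 ± 0.432, *Golga4* 2.92 ± 0.596, *Golga3* 2.01 ± 0.382, *Golgb1* 1.75 ± 0.364 and *Gcc2* 1.24 ± 0.34. Each of these 5 overlapped with its neighbour in the order, whereas *Trip11* lay apart from *Gcc2*.

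In *Kir2.1*-OE mice the range between the highest and the lowest member was 25-fold. *Golga4*, at 10.7 ± 2.55, moved from place 6 to place 4 and overlapped with *Golga5* (12 ± 1.92) and *Gcc1* (9.47 ± 0.529). *Golga1* moved from place 5 to place 8, at 4.77 ± 0.405. *Trip11* and *Gcc2* had the same mean of 3.20 and could not be ordered. The summed level of the 10 genes was 156 ± 9.62 in *Kir2.1*-OE and 131 ± 5 in control pools, and the share of *Gorasp2* in it was 51.4% and 68.6%. These levels rest on the choice of length, because the annotation also holds short partial transcripts of these genes. With the median annotated transcript as the length, *Golga3* was the least abundant in both groups, and the range was 26.5-fold in controls and 13-fold in *Kir2.1*-OE mice. *Gorasp2* was then still the highest in controls (115), but in *Kir2.1*-OE mice it (102) came after *Golgb1* (141) and *Golga2* (109). The sum was then 520 ± 71 in *Kir2.1*-OE and 294 ± 25.7 in control pools, with a *Gorasp2* share of 19.9% and 39.2%.

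**Figure D4:**
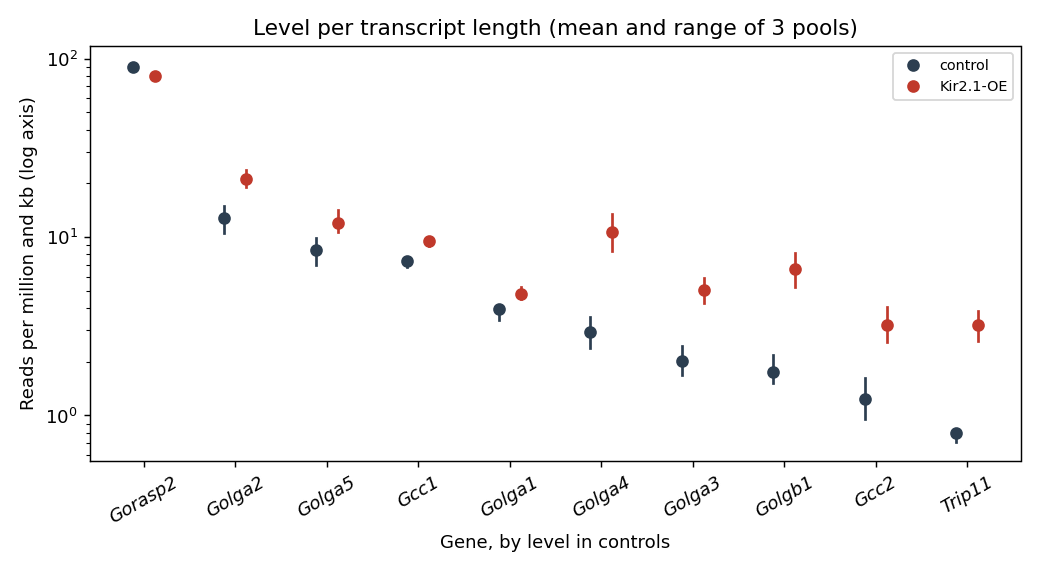
Level of each gene in CPM per kb of the longest transcript (log axis), as the mean (point) and the range (line) of 3 pools, in controls (dark blue) and *Kir2.1*-OE mice (red), ordered by the control level. With this length *Gorasp2* lies above the others in both groups (89.7 and 80), which does not hold in *Kir2.1*-OE mice with the median transcript, and *Trip11* goes from 0.796 to 3.20.

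Since 6 members were higher together, the 250 bases before the RefSeq start (GRCm38.p6, the build that mm10 names) were read for the 8 members in the promoter table, with 9 starts because *Golga5* has 2; *Golga4* and *Golgb1* were not read. The windows of 2 members that rose and 2 that were not called are shown, 5′ to 3′ on the strand of the gene, with matches to the motifs searched in capitals.
Trip11 (chr12:101913172-101913421, - strand): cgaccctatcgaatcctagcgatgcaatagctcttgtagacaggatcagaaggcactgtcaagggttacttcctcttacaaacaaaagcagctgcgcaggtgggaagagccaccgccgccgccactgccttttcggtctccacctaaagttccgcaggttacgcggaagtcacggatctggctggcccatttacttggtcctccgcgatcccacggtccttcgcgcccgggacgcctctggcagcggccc
Golga3 (chr5:110176607-110176856, + strand): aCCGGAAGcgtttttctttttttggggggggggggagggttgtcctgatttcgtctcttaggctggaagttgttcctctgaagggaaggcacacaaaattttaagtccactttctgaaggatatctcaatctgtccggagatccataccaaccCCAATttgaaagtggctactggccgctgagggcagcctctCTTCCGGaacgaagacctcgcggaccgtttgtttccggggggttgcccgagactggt
Gcc1 (chr6:28421725-28421974, - strand): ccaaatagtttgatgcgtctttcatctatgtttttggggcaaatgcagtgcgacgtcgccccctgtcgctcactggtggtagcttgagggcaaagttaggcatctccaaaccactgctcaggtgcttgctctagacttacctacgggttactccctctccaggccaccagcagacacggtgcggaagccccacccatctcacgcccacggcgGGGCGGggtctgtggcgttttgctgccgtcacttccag
Gorasp2 (chr2:70661259-70661508, + strand): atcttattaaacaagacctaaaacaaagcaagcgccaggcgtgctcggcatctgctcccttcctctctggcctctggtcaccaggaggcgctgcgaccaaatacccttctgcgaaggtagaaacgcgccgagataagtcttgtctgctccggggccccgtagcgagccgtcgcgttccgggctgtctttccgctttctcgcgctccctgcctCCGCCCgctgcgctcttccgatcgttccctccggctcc

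Letters were searched on both strands for 6 motifs. The cAMP response element was spelled TGACGTCA. The Golgi stress element, found before genes that respond to an overloaded Golgi, was spelled ACGTGGC. The E-box, which can share bases with the Golgi stress element, was CACGTG. The box bound by NF-Y was CCAAT. The core bound by ETS factors was CCGGAAG. The GC box bound by Sp factors was GGGCGG. The window of *Trip11* held none of them and neither did that of *Gcc2*. *Golga3* had the ETS core at 249 and 57 bases and the NF-Y box at 97 bases before the start, and *Golga2* had the ETS core at 54 and 51 bases, on opposite strands of a shared palindrome, and the NF-Y box at 149. *Gcc1* and *Gorasp2* each had 1 GC box, at 38 bases before the start. *Golga1*, which was not called, had the ETS core at 23 bases and a GC box at 196 bases before the start. Neither the cAMP response element nor the Golgi stress element was in any of the 9 windows, and among all 32851 promoters of this length 1.55% and 2.02% hold them. The ETS core was in 3 of the 9 windows (*Golga2*, *Golga3* and the uncalled *Golga1*), beside 6.91% of all promoters and 11.7% of those of genes tested. The GC box was in 4, beside 32.7% and 55.3%, and the NF-Y box in 2, beside 33.8% and 34.6%. The E-box was in 2 windows, both of them starts of *Golga5*, with shares of 6.02% and 7.88%. These are matches of letters, and no binding was measured.

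The other genes of Golgi trafficking were taken from 9 role lists with 101 genes, all of which were tested. Of these, 15 were called higher and 2 lower, or 14.9% higher beside 15.5% of all genes, and their median log2 fold change was -0.03. The lists differed in their counts. Of the 15 other golgins and matrix proteins 6 were called higher, led by *Tmf1*, a golgin that binds Rab6, at 1.63 on the log2 scale (789 ± 227 normalized counts in *Kir2.1*-OE and 255 ± 51.9 in control mice, SD, n = 3 pools). *Bicd1*, a dynein adaptor that Rab6 recruits, had the lowest value of a called gene in that list, 0.59, and *Golph3*, a phosphoinositide-binding Golgi protein and the most abundant in the list, had -0.05. The called genes of this list have longest transcripts from 5546 to 12862 nt and the others from 2663 to 4771 nt. The part of length in the count was not tested. *Tmf1* and *Ccdc88a*, which encodes girdin, were the 2 that the offsets for length and GC content left called, at 1.52 and 1.05.

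Of the 7 genes for proteins that tie microtubules to the Golgi, 5 were called higher, and their median log2 fold change was 1.04. The median longest transcript of this list is 8376 nt, and among all genes of 8000 nt or more 64% were called higher with a median of 0.81. The list also holds shorter genes, down to 5609 nt. In the classes from 4000 to under 6000 nt and from 6000 to under 8000 nt, 19.9% and 44.6% of all genes were called higher. The part of length in this count was not tested. *Akap9*, whose product AKAP450 is recruited by GM130 and nucleates microtubules at the cis-Golgi, had 2178 ± 584 against 565 ± 124 normalized counts and a log2 fold change of 1.94. *Camsap2*, for a protein that caps microtubule minus ends, was the most abundant and had the lowest value of a called gene, 0.69. With the offsets *Akap9* was the 1 gene called, at 1.38, and the median was 0.20.

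The multisubunit tethers also catch vesicles at the Golgi but are not coiled-coil rods. Their genes had shorter transcripts, with list medians in the class from 2000 to under 4000 nt, where 6.67% of all genes were called higher. Single genes ran from 759 to 5361 nt, and in the classes under 2000 nt and from 4000 to under 6000 nt the shares were 2.44% and 19.9%. The part of length in the counts was not tested. None of the 8 genes of the COG complex and none of the 5 of the GARP and EARP complexes was called, with medians of -0.02 and 0.05. The most abundant were *Cog6*, with a log2 fold change of -0.25, and *Vps52*, with -0.03. Of the 14 TRAPP genes, none was called higher, and *Trappc2l* and *Trappc6a* were called lower, both at -0.60, beside 5.08% of all genes. Both calls were lost with the offsets, at -0.42 and -0.35. None of the 12 Golgi SNARE genes (median -0.26) or the 9 COPI coat genes (median -0.24) was called. The most abundant genes of these last 3 lists, *Trappc3*, *Ykt6* and *Copa*, had log2 fold changes of -0.45, -0.24 and 0.03. The median longest transcript of these 5 lists lay between 2912.5 and 3482.5 nt.

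Of the 16 genes for small GTPases that recruit golgins, and for their partners, *Rab6b*, the neuronal form of Rab6, was called higher at a log2 fold change of 0.84 (2972 ± 733 against 1662 ± 220), and none was called lower. *Arl1*, which the GRIP domain binds, had 3413 ± 215 against 4667 ± 583 normalized counts and a log2 fold change of -0.45, under the threshold. *Arf1*, the most abundant of the list, had -0.37, and the median was -0.35. With the offsets *Rab6b* lost its call, at 0.47, *Sys1* and *Rab18* of this list were called lower, at -0.69 and -0.64, and so was the SNARE gene *Stx6*, at -0.61. Of 15 genes for Golgi enzymes and cargo receptors 3 were called higher, from *Igf2r*, for a mannose 6-phosphate receptor, at 0.99 to *Glg1* at 0.78. *Galnt2*, which starts O-linked glycosylation and was the most abundant of the list, had 10016 ± 373 against 9985 ± 398 normalized counts and a log2 fold change of 0.00. None of the 15 was called with the offsets.

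**Figure D5:**
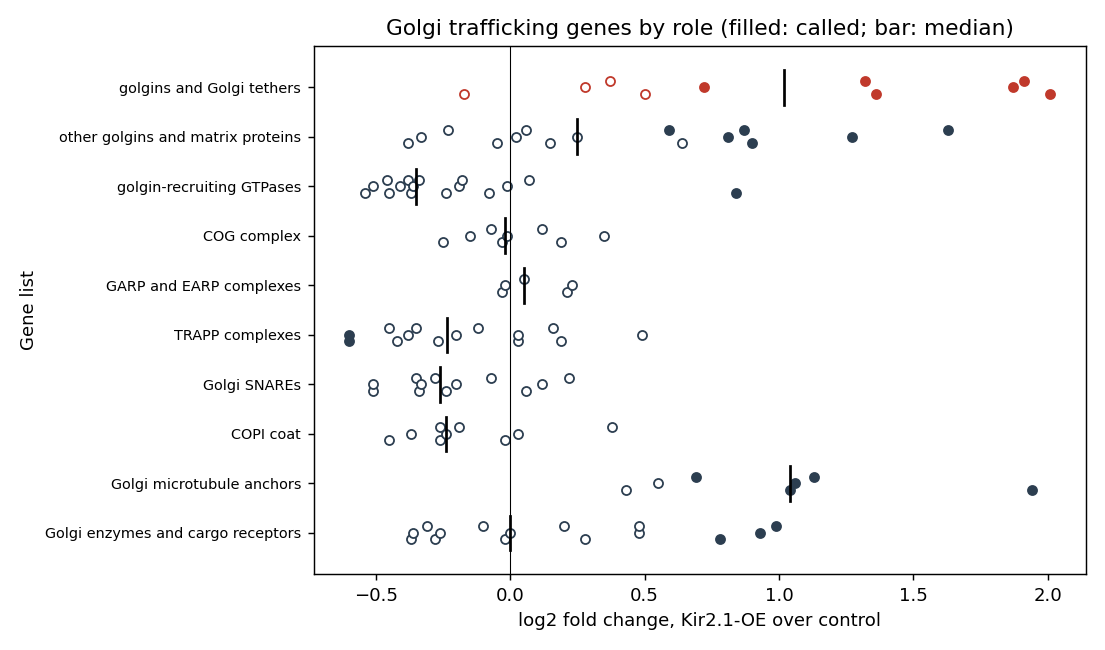
Log2 fold change of *Kir2.1*-OE over control for the 10 golgin and tether genes (red) and for 101 other genes of Golgi trafficking in 9 lists by role (dark blue), with filled points for called genes and a bar at each median. The medians are 1.02 for the 10 genes and 1.04 for the Golgi microtubule anchors, and lie between -0.35 and 0.25 for the other lists.

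Some reads of the members cannot be assigned with certainty. Exons of *Gcc1* share 313 nt with *Arf5* and 58 nt with *Fscn3*, those of *Gorasp2* share 230 nt with *Tlk1* and 185 nt with *Gm26558*, and those of *Golga2* share 98 nt with *Swi5*, all on the opposite strand. No strand setting is stated, so reads from these stretches cannot be told apart. Those of *Golgb1* share 499 nt and 114 nt with *Gm49599* and *Gm49600* on its own strand, and those of *Trip11* share 28 nt with *Gm20036* on the opposite strand. The 6 called members were called whichever library was left out. *Golga5* was also called when control replicate 2 was left out, at a log2 fold change of 0.63.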

How the data were processed

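RNA of cochlear sensory epithelium was sequenced in 3 *Kir2.1*-OE and 3 control pools. The authors enriched poly(A) RNA, sequenced paired reads, mapped them to mm10 with the nf-core RNA pipeline and counted with Salmon; versions and the gene annotation are not given in the sources used here. The authors deposited expected counts per gene symbol, neither scaled nor divided by length. These were rounded and fitted over all genes with edgeR 4.0.16 (R 4.3.3): filterByExpr, TMM scaling (factors 0.984 to 1.01), quasi-likelihood test, Benjamini-Hochberg adjustment, all 6 libraries, no covariate. Standard errors are the log2 fold change divided by the square root of F. Libraries of a group differed by more than sampling noise (chi-square per degree of freedom 16.2 to 32.3). Nothing says that pools of a group came from separate litters, so p-values measure the spread between these pools.

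Lengths, GC content and positions came from GENCODE vM21 (mm10), in which 23376 symbols matched directly and 651 through an older symbol. Offsets came from a loess trend (span 0.4) over length and GC content, fitted per library to the log2 ratio against the mean of the libraries. Scripts were tested on simulated data. Named genes were the 10 members, *Kcnj2*, and from each role list the called genes with the highest and lowest log2 fold change and the most abundant gene by its mean count over all libraries; *Arl1*, *Ccdc88a*, *Sys1*, *Rab18*, *Stx6* and genes that overlap a member were named after their values were seen. The members and lists were chosen with earlier results of these data known. Alternatives were other scalings, filters, thresholds, DESeq2 1.42.0, a replicate block, the offsets and each library left out.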

Additional observations from a re-analysis of the deposited data

How the results depend on the processing

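The 10 genes gave 170 values under 17 alternatives, of which 164 kept their direction and their side of the threshold and none changed direction. The test against 0.6 and the calls without a fold threshold used the fold changes of the main fit, so direction could not change there. *Golga2* lost its call with the length and GC offsets (0.35), with the offsets and the replicate block (0.36), and against a log2 fold change of 0.6. *Gcc1* and *Golga5* passed without a fold threshold, and *Golga5* also without control replicate 2. For *Gorasp2* the adjusted p fell under 0.05 with upper quartile scaling (0.0116, edgeR), library size alone (0.0473, edgeR) and DESeq2's Wald test (0.0379). Its log2 fold changes there, from -0.25 to -0.17, stayed within the 1.5-fold threshold. The number of members called was between 5 (offsets; test against 0.6) and 8 (no fold threshold). It was 6 with DESeq2's Wald test, with each other scaling and with each filter.

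The median log2 fold change of the members was 0.62 with the offsets, with or without the replicate block. The other Golgi trafficking genes called higher numbered 3 with the offsets (3 with the block as well), 8 against a log2 fold change of 0.6 and 28 without a fold threshold. Those called lower numbered 6 with upper quartile scaling, 0 against 0.6 and 38 without a fold threshold. Upper quartile scaling moved the median over all genes by -0.0893 (log2) and the share of calls that were higher from 75.2% to 57.9%. Calls over all genes with the offsets were 987 higher and 520 lower, against 2365 and 778. With libraries left out in turn, the members called numbered 6 to 7, their median was 0.88 to 1.17, *Kcnj2* had 3.64 to 4.00, and other Golgi genes called numbered 14 to 16 higher and 0 to 5 lower; *Trappc2l* and *Trappc6a* were the 2 called lower with all libraries, none was without *Kir2.1*-OE replicate 1 or control replicate 1, and 5 were without *Kir2.1*-OE replicate 3. The range of levels per length was 26.5-fold with the median transcript. The cause of these changes was not tested.

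Same-numbered pools did not deviate together from their group means, with correlations of -0.0944, -0.215 and -0.205. The column of control replicate 1 carries the number 4 in its header. Whether the numbers pair pools by litter is not stated. These correlations cannot decide it, because the deviations of 3 pools sum to 0 within each group. With the replicate block 6 members were called, and no library correlated best with its own number.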

Other observations

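Outside the Golgi lists, the 5 genes whose log2 profile over the 6 pools was nearest to the mean profile of the 10 golgin and tether genes were *Arhgef28*, *Eif4g3*, *Phactr2*, *Mllt6* and *Ceacam1*, with root mean square differences between 0.0312 and 0.0423 on the log2 scale. They were picked from all genes tested for this likeness, which carries no test. Their log2 fold changes lay between 0.99 and 1.04. After correction for length and GC content *Ceacam1*, with a longest transcript of 3656 nt, had 0.95, *Arhgef28* (5387 nt) 0.58, *Phactr2* (8556 nt) 0.55, *Eif4g3* (8134 nt) 0.29 and *Mllt6* (7274 nt) 0.15. The members were not picked for this likeness, so their values cannot be set against those of the 5 genes. Their differences from their own mean profile ran from 0.153 for *Golga2* and 0.164 for *Golga3* to 0.493 for *Trip11* and 0.62 for *Gorasp2*.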
